A study of Danio rerio with 2 samples.

Results

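The Wnt pathway genes described here are the 60 of 23809 genes in the deposited table whose symbol names a Wnt ligand, a Frizzled receptor (fzd), the co-receptor lrp5 or lrp6, a secreted regulator (sfrp, dkk, wif1, notum, rspo), an Axin scaffold, or a transcription factor of the Tcf and Lef family. They were chosen by a rule on the name, but with earlier results of these data known. They comprise 23 ligands, 14 receptors, 12 secreted inhibitors, 4 secreted enhancers, 2 scaffolds and 5 transcription factors. RNA was taken from whole zebrafish embryos at 3 days post fertilization, with 1 library from untreated embryos (control) and 1 from embryos exposed since 4 hours post fertilization to the triazole fungicide cyproconazole at 20 µM. Each library is a pool of 40 embryos. Both groups carry the genotype SAGFF(LF)53A mitfab692/+, so the untreated embryos are also heterozygous for this allele of the pigment cell regulator mitfa. The labels do not say whether the 2 pools came from the same clutch.

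Wnt proteins are lipid-modified signals that bind Frizzled receptors together with the co-receptors Lrp5 and Lrp6. In the beta-catenin branch, receptor binding disables a breakdown complex of Axin, Apc and the kinases Gsk3 and casein kinase 1, so that beta-catenin accumulates and switches on targets together with Tcf and Lef factors. Some of those targets, such as axin2 and notum1a, feed back to limit the signal. Other Wnt ligands act through a branch that directs cell movement and polarity. In the fish embryo the pathway patterns the body axis, brain, fins and jaw.

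The table gives FPKM (fragments counted per kilobase of transcript and scaled to library depth) for each library. Whole reads per gene and library were recovered from its other columns, not from FPKM. The FPKM need not have been made from these recovered reads, although the 2 are printed together. The control holds 18067935 such reads in genes and the cyproconazole library 20726375, of which 25765 and 32312 belong to the 60 genes. With 1 library per group there is no replicate check, no test was made, and a ratio describes these 2 pools rather than the treatment. A read ratio is the scaled number of reads in the cyproconazole library over that in the control. The range in brackets beside it is an exact 95% interval for the error of counting alone. Of 65 marker genes of 17 tissues, 64 had reads in both libraries. Of all genes with at least 50 reads over both libraries, 2.86% exceeded 1.5-fold upwards in the exposed embryos and 3.13% downwards. Of the marker genes, 3 exceeded it upwards and 10 downwards, while her4.1 and ela2l had too few reads to be called. Those downwards belonged to the cartilage list (4 of 5 genes, summed read ratio 0.485, 0.480 to 0.489), the fin fold list (2 of 4 genes, 0.480, 0.469 to 0.491), the photoreceptor list (3 of 5 genes, 0.608, 0.590 to 0.627) and the tendon list (1 of 3 genes, 0.721, 0.689 to 0.754). Those upwards belonged to the list for red blood cells (2 of 3 genes, 1.58, 1.504 to 1.67) and the heart list (1 of 3 genes, 1.04, 0.945 to 1.14). Their part in the Wnt gene values was not tested. In RNA from whole embryos, fewer cells of a type and less RNA per cell cannot be told apart.

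Most Wnt pathway genes lay close to a ratio of 1, and the exceptions were a few ligands, the secreted inhibitor sfrp2 and the receptor fzd9b. All 60 genes had reads and FPKM above 0 in both libraries, and 55 reached the minimum of 50 reads over both libraries. The 5 below it were the ligands wnt2ba (15 reads in the control and 27 with cyproconazole), wnt5a (16 and 26), wnt7ba (9 and 13) and wnt8a (12 and 13) and the receptor fzd9a (13 and 13), and the intervals of all 5 hold 1. By reads, 6 of the 55 genes were higher by 1.5-fold or more with cyproconazole (10.9%, against 2.86% of all 18633 genes with that minimum), namely wnt9a, wnt6b, sfrp2, wnt11, wnt9b and dkk1a. Of these 6, wnt9a, wnt6b, wnt11 and dkk1a had under 100 reads. At that depth the highest 5% of all genes lay past 1.8-fold, so 2.86% is a low share to set beside them. At least 1.5-fold lower were 2 (3.64%, against 3.13% of all genes), fzd9b and wnt8b. Among the 36 genes with at least 200 reads, only sfrp2 and wnt9b were higher by this measure and only fzd9b lower, where 1.32% and 1.86% of all genes of that depth were higher and lower. The median log2 read ratio of the 55 genes was 0.16, against 0.0079 over all genes, and 37 of the 55 had a ratio above 1, as did 51.7% of all genes.

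**Figure D1:**
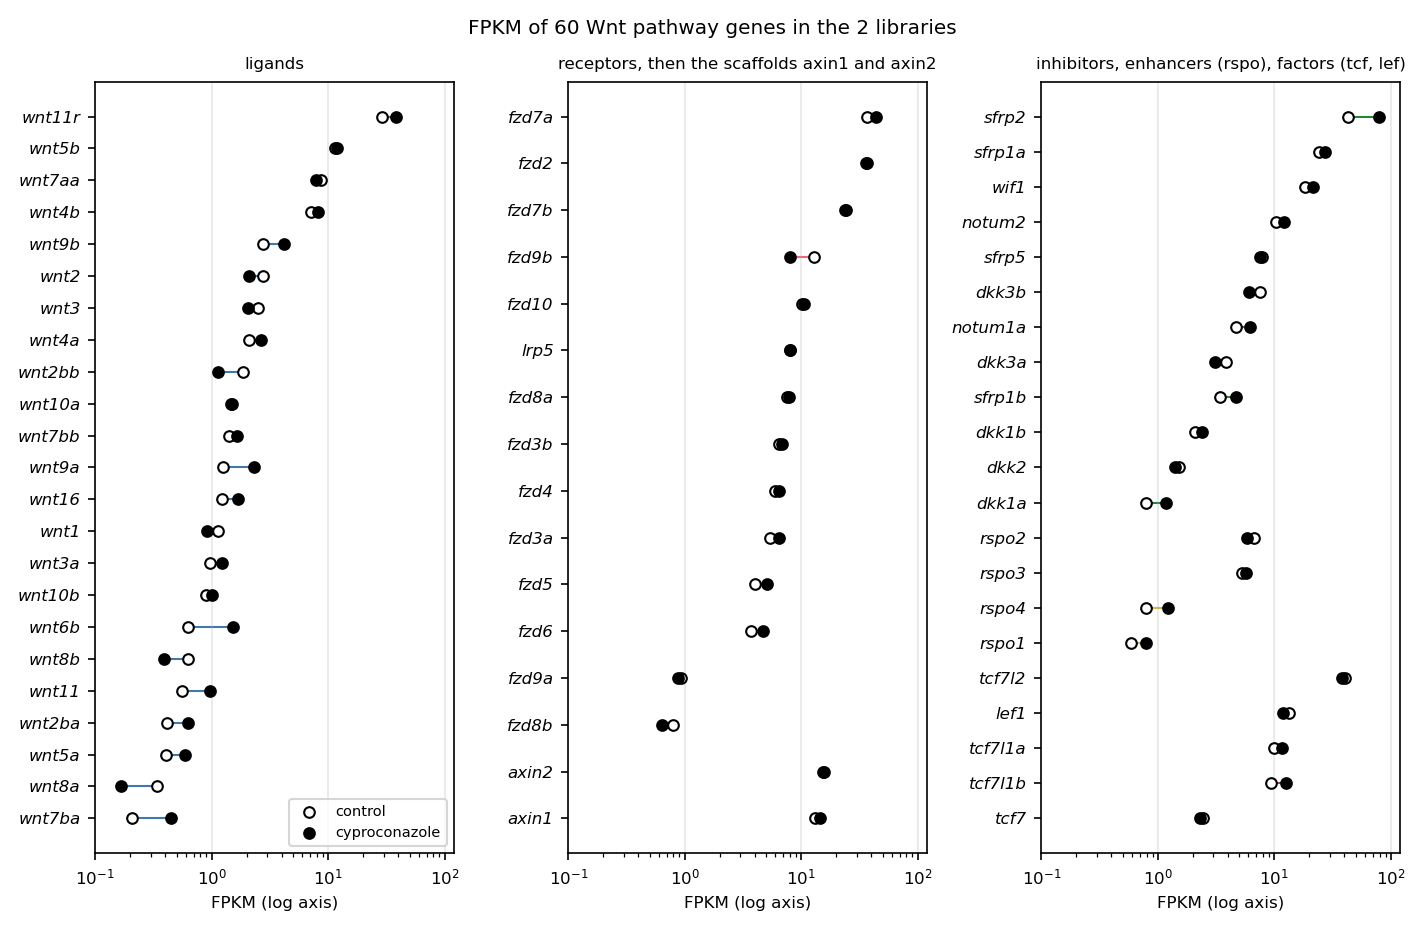
FPKM (log axis) of each of the 60 genes in the control library (open circles) and the cyproconazole library (filled circles), 1 library each, ordered by control level within each role; the coloured line joins the 2 values of a gene. The values of most genes overlap or nearly so, while sfrp2 goes from 42.6 to 79.4 FPKM and fzd9b from 12.8 to 8.05 FPKM.

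The counting interval lay wholly above 1 for 17 of the 55 genes (30.9%, against 15.8% of all genes) and wholly below 1 for 3 (5.45%, against 14.5%). Such an interval is narrower for genes with more reads. All 60 genes, those below the minimum included, had a median of 320.5 reads over both libraries. The median was 644 for all genes with the minimum, a set that leaves out such scarce genes. Beside genes of like depth, 49 of the 55 lay within the range that holds the middle 90% of all genes, a share close to that 90%. Above that range were sfrp2, wnt9a, wnt6b, wnt9b and wnt11r (5 of 55, against 5% of all genes), and below it was fzd9b.

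**Figure D2:**
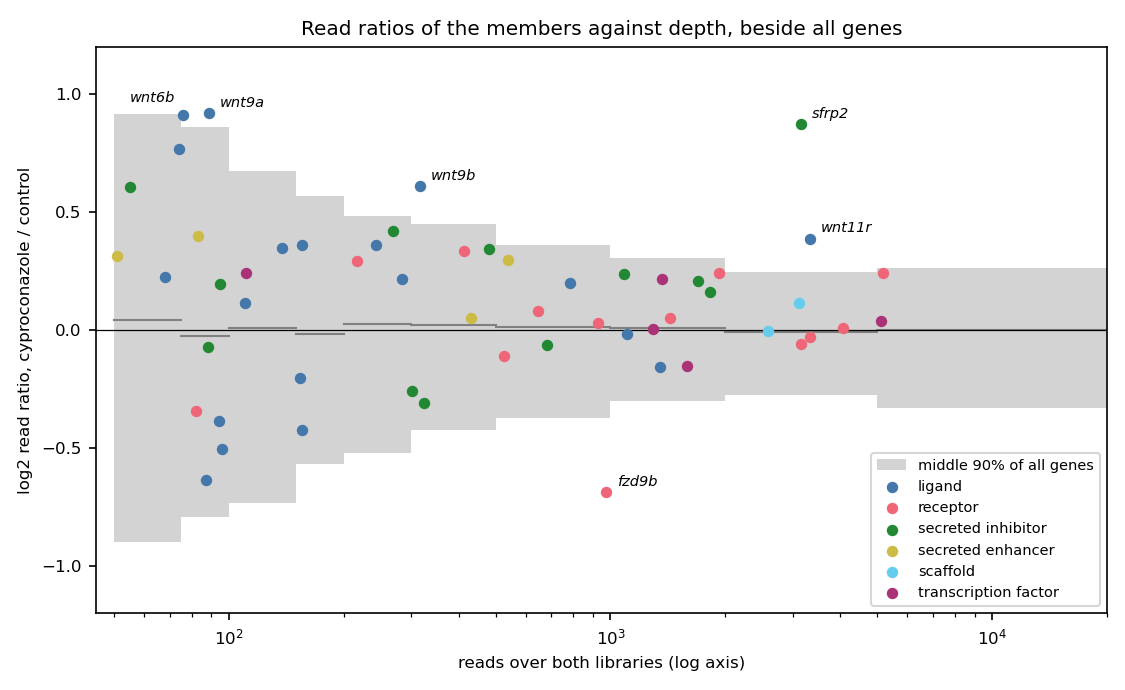
Log2 read ratio (cyproconazole over control) against the reads over both libraries (log axis) for the 55 genes with at least 50 reads, coloured by role; grey boxes hold the middle 90% of all genes of that depth and grey lines their median. The 6 genes outside the boxes are labelled, with sfrp2 at 0.87 and fzd9b at -0.69.

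Among the ligands, wnt11r was by far the most abundant and several scarce ligands had the highest ratios. The FPKM of the 23 ligands summed to 79.9 in control embryos and 93.4 in exposed ones, and wnt11r alone made up 36.3% and 41.1% of this sum. This gene, a Wnt of the cell movement branch that acts in heart and muscle formation in zebrafish, had 29.0 FPKM without and 38.3 FPKM with cyproconazole, from 1331 and 2004 reads. Its read ratio was 1.31 (1.22 to 1.40), while the middle 90% of genes of like depth ended at 1.19-fold higher. The reference name table calls wnt11r WNT11, and it gives the row listed as wnt11 another name.

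The paralogs wnt9a and wnt9b were both higher in the cyproconazole library. In zebrafish wnt9a takes part in forming the palate and jaw cartilage, and in blood stem cells it signals through the receptor Fzd9b. It had 1.26 FPKM without and 2.29 FPKM with cyproconazole, from 28 and 61 reads, for a ratio of 1.89 (1.19 to 3.08). Its paralog wnt9b had 2.78 and 4.20 FPKM from 115 and 202 reads, a ratio of 1.53 (1.21 to 1.94). The intervals of the pair overlap widely, so a difference between their 2 ratios cannot be told from counting error.

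The ligand gene wnt6b had 0.626 and 1.52 FPKM from 24 and 52 reads, with a ratio of 1.88 (1.14 to 3.19). The gene listed as wnt11, which the reference table now calls wnt11f2 and whose product guides cell movements in gastrulation, had 0.557 and 0.958 FPKM from 25 and 49 reads, at 1.70 (1.03 to 2.88). Both are scarce transcripts. At 75 to 100 reads the middle 90% of all genes reached 1.82-fold higher, a value wnt9a and wnt6b passed by little, and wnt11, with 74 reads, was inside the range for its depth.

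On the lower side stood wnt8b, a forebrain and hindbrain patterning signal, with 0.620 and 0.392 FPKM from 50 and 37 reads and a ratio of 0.643 (0.409 to 1.004). Its interval reaches 1, so these read numbers are too low to show a difference. The same holds for wnt2bb, which promotes liver specification in zebrafish, at 0.705 (0.460 to 1.07), wnt2 at 0.745 (0.536 to 1.03) and the midbrain-hindbrain boundary signal wnt1 at 0.765 (0.498 to 1.17). Of the more abundant ligands, wnt5b, a signal for cell movement and cartilage growth, had 11.5 and 11.9 FPKM from 517 and 589 reads and a ratio of 0.990 (0.878 to 1.12). The neural ligand wnt7aa had 8.67 and 7.91 FPKM and a ratio of 0.897 (0.805 to 0.9995). The other ligands with 50 reads or more, wnt3, wnt3a, wnt4a, wnt4b, wnt7bb, wnt10a, wnt10b and wnt16, had intervals that hold 1, with wnt3a at 1.16 (0.913 to 1.48).

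**Figure D3:**
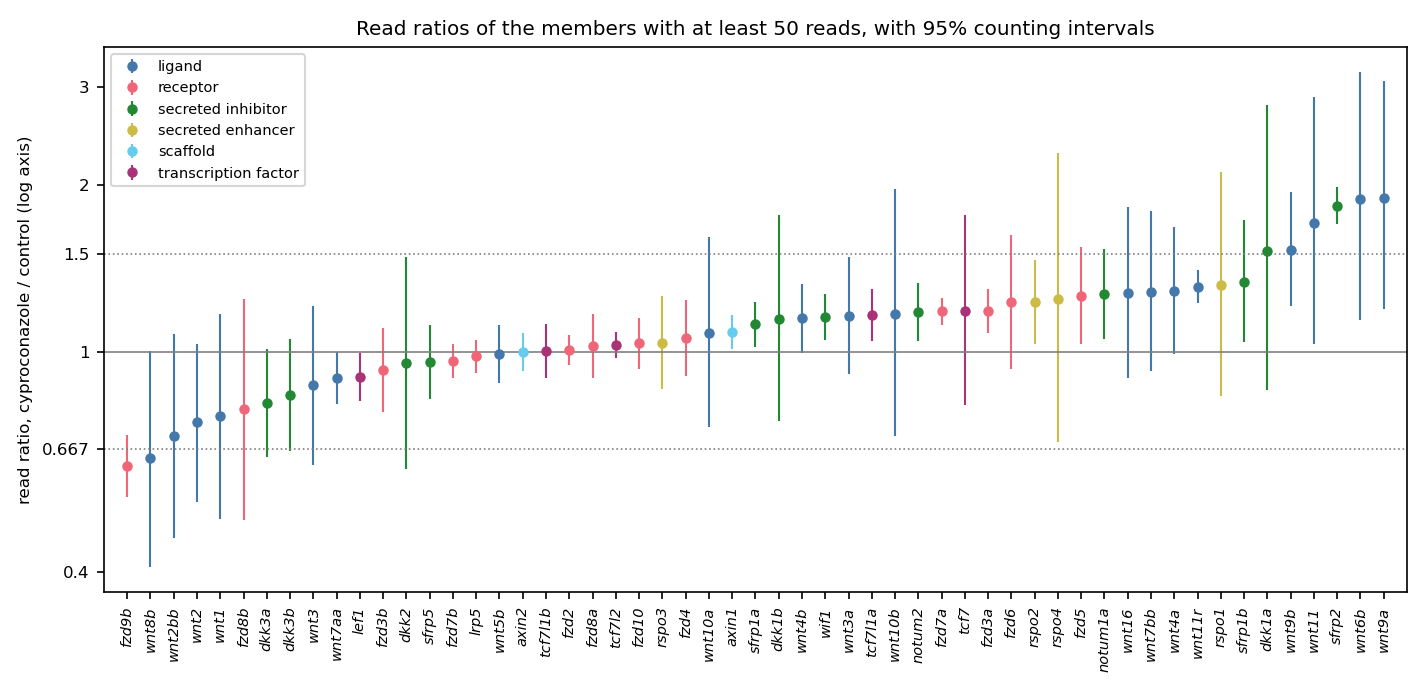
Read ratio (cyproconazole over control, log axis) of the 55 genes with at least 50 reads, in rising order and coloured by role; bars are 95% counting intervals, and dotted lines mark 1.5-fold in each direction. The whole interval of sfrp2, 1.70 to 1.98, lies above the upper dotted line, and no interval lies wholly below the lower one.

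Receptor genes were within 1.5-fold apart from fzd9b. The 13 Frizzled genes and lrp5 together had 163.2 FPKM in control embryos and 169.6 FPKM in exposed ones, with a summed read ratio of 1.03 (1.005 to 1.06). Of the 13 with at least 50 reads, 12 lay between 0.788 (fzd8b) and 1.26 (fzd5). The exception, fzd9b, had 12.8 and 8.05 FPKM from 569 and 407 reads. Its ratio of 0.622 (0.546 to 0.707) lay beyond the middle 90% of genes of like depth, which ended at 0.774. It is the lowest value among the 55 genes and the only one of them below its depth range. The ligand wnt9a, known to signal through Fzd9b in zebrafish blood stem cells, stood at 1.89 from only 28 and 61 reads. A link between these values was not tested, and RNA from whole embryos does not show which cells they come from.

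The most abundant receptors were fzd7a, fzd2 and fzd7b, at 36.7, 36.3 and 24.4 FPKM in the control. In the cyproconazole library they had 43.8, 36.8 and 23.6 FPKM. Here fzd7a had 2190 and 2976 reads and a ratio of 1.18 (1.12 to 1.249), while its paralog fzd7b had 1501 and 1657 reads and a ratio of 0.960 (0.894 to 1.03). This was the only pair, of 10 paralog pairs with 50 reads or more in each gene, whose counting intervals did not overlap. It was also the pair with the most reads, 5166 and 3158 over both libraries, which makes its intervals narrow. Each of fzd7a and fzd7b lay inside the range for its depth. How often other gene pairs of this depth have intervals apart was not tested. Both receptors take part in cell movements of gastrulation in zebrafish. The axon guidance receptor fzd3a had a ratio of 1.18 (1.08 to 1.30) and the eye receptor fzd5 1.26 (1.03 to 1.54). The intervals of fzd2, fzd3b, fzd4, fzd6, fzd8a, fzd8b, fzd10 and lrp5 hold 1, and lrp5, with 1562 and 1762 reads, was at 0.980 (0.915 to 1.05).

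A row listed only by its Ensembl identifier, ENSDARG00000100143, is named LRP6 in the reference name table. It was thus not among the 60 genes, but LRP6 is the other co-receptor of the beta-catenin branch. It had 9.09 and 12.9 FPKM from 380 and 650 reads and a ratio of 1.49 (1.31 to 1.69), just under 1.5-fold and above the 1.24 at which the middle 90% of genes of like depth ended. The 3 other rows that only that table names as Wnt genes are WNT7A, wnt6a and sfrp2l. The WNT7A row had 90 and 131 reads and a ratio of 1.26 (0.960 to 1.67), and the remaining rows had 27 and 10 reads over both libraries.

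Secreted inhibitors were higher in sum, mainly through sfrp2. Sfrp proteins bind Wnt ligands outside the cell, Wif1 does the same, Dkk proteins such as Dkk1 block Lrp5 and Lrp6, and Notum removes the lipid from Wnt. Control embryos had 42.6 FPKM of sfrp2 from 1016 reads, and exposed embryos 79.4 FPKM from 2143 reads. It was the most abundant of the 60 genes in both libraries, and its read ratio of 1.83 (1.70 to 1.98) was the only one whose whole interval lay past 1.5-fold. Its share of the inhibitors' summed FPKM was 33.5% in the control and 46.0% with cyproconazole. Genes of like depth ended at 1.19-fold for the middle 90%.

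The other Sfrp genes differed less. For sfrp1a the FPKM were 24.1 and 27.0 and the read ratio 1.12 (1.02 to 1.23), and for sfrp1b they were 3.41 and 4.64 with a ratio of 1.34 (1.04 to 1.72). The ratio of sfrp5 was 0.958 (0.822 to 1.12). Of the other inhibitors, the wif1 and notum genes had intervals above 1. For wif1 the FPKM were 18.4 and 21.6 and the ratio 1.15 (1.05 to 1.27). The notum1a values were 4.72 and 6.18 FPKM, at 1.27 (1.05 to 1.53), and those of notum2 10.3 and 12.2 FPKM, at 1.18 (1.04 to 1.33). In all, 6 of the 12 inhibitors had an interval above 1 (50%, against 15.8% of all genes) and 0 had one below it (against 14.5%). The Sfrp relative frzb, which the choice by symbol leaves out of the 12, was lower, at 0.388 (0.305 to 0.491). The Dkk genes were not among the 6. The divergent members dkk3a and dkk3b, counted as inhibitors by family name only, had ratios of 0.807 (0.645 to 1.01) and 0.835 (0.662 to 1.05). The head inducer dkk1b was at 1.15 (0.749 to 1.76) and dkk2 at 0.952 (0.613 to 1.48). With 20 and 35 reads, dkk1a had a ratio of 1.52 (0.854 to 2.78), so that its place past 1.5-fold is within counting error.

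R-spondins, secreted proteins that strengthen Wnt signals by keeping Frizzled receptors at the cell surface, had ratios from 1.04 to 1.32. For rspo2 the 2 measures disagree: its FPKM went from 6.67 to 5.80, whereas its reads went from 223 to 315, a ratio of 1.23 (1.03 to 1.46). The intervals of rspo1 (33 and 50 reads), rspo3 (196 and 234 reads) and rspo4 (21 and 30 reads) hold 1, and rspo3 was at 1.04 (0.855 to 1.26).

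Inside the cell, axin2 and lef1, targets often read as a gauge of beta-catenin signalling, were within 1.5-fold, and axin2 was nearly level. The feedback scaffold gene axin2 had 15.3 and 15.5 FPKM from 1203 and 1380 reads and a ratio of 0.997 (0.922 to 1.08). Its relative axin1, the constant scaffold of the breakdown complex, had 13.2 and 14.4 FPKM and a ratio of 1.08 (1.01 to 1.16). The factor gene lef1, itself a target, had 13.3 and 11.9 FPKM from 778 and 806 reads, a ratio of 0.900 (0.815 to 0.995). The 9 genes fixed as known targets were axin2, lef1, tcf7, notum1a, dkk1b, wif1, sp5a, sp5l and nkd1, with ratios from 0.762 to 1.27. Of these, 0 were past 1.5-fold (against 2.86% of all genes upwards and 3.13% downwards). The interval lay above 1 for 2 (notum1a and wif1, 22.2%, against 15.8% of all genes) and below 1 for 1 (lef1, 11.1%, against 14.5%). These shares rest on 9 genes, too few to read as a level of signalling.

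The Tcf genes spanned a narrow range. The most abundant, tcf7l2, had 40.2 and 38.4 FPKM from 2350 and 2777 reads and a ratio of 1.03 (0.972 to 1.09). The repressor-type factor tcf7l1a, which zebrafish need to form a head, had 10.0 and 11.7 FPKM and a ratio of 1.16 (1.04 to 1.30). For its paralog tcf7l1b the FPKM went from 9.45 to 12.6, but its 601 and 693 reads gave a ratio of 1.002 (0.897 to 1.12). The scarce tcf7 had 47 and 64 reads and a ratio of 1.18 (0.800 to 1.76).

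FPKM and reads gave similar ratios for most of the 55 genes, with a median absolute difference of 0.021 on the log2 scale. The difference passed 0.3 for 5 genes, rspo2, tcf7, rspo4, wnt6b and tcf7l1b, and FPKM and reads lay on opposite sides of 1 for 7, of which rspo2 was the furthest apart. By the log2(FPKM + 1) difference, which understates the change of low genes, sfrp2 and wnt6b were at least 1.5-fold higher (2 of 55, against 1.58% of 18640 genes) and fzd9b was at least 1.5-fold lower (1 of 55, against 1.71%). The differences on this scale were 0.88 for sfrp2, 0.63 for wnt6b and -0.61 for fzd9b, and the median over the 55 genes was 0.10, against 0.021 over all genes.

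Some Wnt genes sit side by side in the genome. In the RefSeq annotation of the assembly GRCz12tu, which is not the build of the deposited table, 3 pairs of the 60 genes have no protein-coding gene between them: wnt3a with wnt9a, wnt6b with wnt10a, and wnt10b with wnt1. The neighbours of the higher genes wnt9a (1.89) and wnt6b (1.88) had ratios of 1.16 for wnt3a and 1.08 (0.731 to 1.61) for wnt10a. In all 3 pairs the intervals of the neighbours overlap.

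Beyond the 60 genes, the rest of the pathway was described by a list of genes, of which 103 were matched to a row, 11 were not, and 94 had at least 50 reads. Of these 94, wtip was the 1 gene past 1.5-fold upwards (1.06%, against 2.86% of all genes) and frzb the 1 past it downwards (1.06%, against 3.13%), and the median log2 read ratio was 0.051. The interval lay above 1 for 21 (22.3%, against 15.8% of all genes) and below 1 for 15 (16.0%, near the 14.5% of all genes). By FPKM, the proteoglycan gene gpc3 was past 1.5-fold upwards, but its 35 and 51 reads gave a ratio of 1.27, and frzb was past it downwards.

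The secreted Wnt-binding protein gene frzb, a relative of the Sfrp genes that is active in zebrafish cartilage, had 3.57 FPKM without and 1.41 FPKM with cyproconazole. Its 233 and 104 reads gave a ratio of 0.388 (0.305 to 0.491). It thus stood opposite to sfrp2. The cartilage marker list was lower in the same library, with a summed ratio of 0.485, and its part in the frzb value was not tested. The LIM-domain gene wtip had 48 and 93 reads and a ratio of 1.68 (1.18 to 2.44).

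Apart from frzb, the other listed genes with at least 50 reads that act in secretion, at the cell surface or as alternative receptors were within 1.5-fold by reads. The Wnt carrier wls, needed for secretion, had 2694 and 3328 reads and a ratio of 1.07 (1.02 to 1.13), and the acyltransferase porcn, which attaches the lipid, was at 0.874 (0.711 to 1.07). The alternative receptor ror2 was at 1.12 (0.981 to 1.28). Another, musk, which acts at nerve-muscle synapses, had 204 and 167 reads and was lower, at 0.712 (0.576 to 0.877). The secreted surface modulator serpinf1, with 1123 and 991 reads, was at 0.767 (0.7035 to 0.836). Both musk and serpinf1 lay below the range for their depth. Of the proteins that control receptor turnover, the ubiquitin ligase znrf3 was at 1.01 (0.890 to 1.14), and the R-spondin receptors lgr4 and lgr6 at 0.930 (0.861 to 1.005) and 1.11 (0.684 to 1.83). The Lrp-binding antagonist sost was at 1.04 (0.909 to 1.18). The genes rnf43 and lgr5 were not analysed here.

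**Figure D4:**
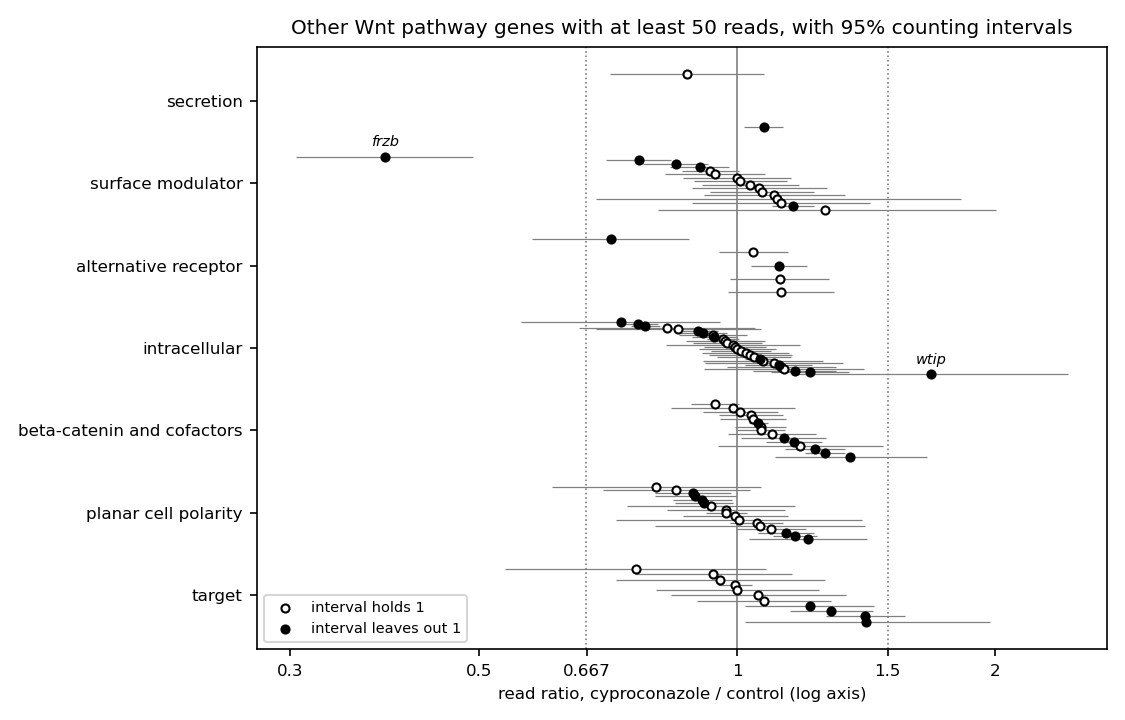
Read ratio (cyproconazole over control, log axis) of the 94 other listed pathway genes with at least 50 reads, by role; bars are 95% counting intervals, filled points have an interval that leaves out 1, and dotted lines mark 1.5-fold in each direction. Only frzb, at 0.388, and wtip, at 1.68, lie outside the dotted lines.

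In the breakdown complex, apc and apc2 were both lower, with 5359 and 4817 reads and a ratio of 0.781 (0.751 to 0.8125) for apc and 2892 and 2547 reads and 0.765 (0.726 to 0.808) for apc2. The kinase gene gsk3bb was at 0.731 (0.559 to 0.954), gsk3b at 0.941 (0.886 to 0.998), gsk3ab at 0.912 (0.854 to 0.974) and gsk3aa at 0.989 (0.826 to 1.185). Of the casein kinase 1 genes, csnk1a1 was at 1.06 (1.02 to 1.11) and csnk1db at 0.901 (0.855 to 0.949). Among the 28 listed intracellular genes matched to a row, 5 had an interval above 1 (17.9%, against 15.8% of all genes) and 6 below it (21.4%, against 14.5%). Of the beta-catenin genes, ctnnb1, with 10146 and 12365 reads, was at 1.06 (1.03 to 1.09), and ctnnb2, with 2214 and 3227 reads, at 1.27 (1.2 to 1.34). In the list of beta-catenin and its cofactors 6 of 15 genes had an interval above 1 (40%, against 15.8% of all genes) and 0 below it (against 14.5%). Their median of 2080 reads over both libraries makes these intervals narrow. Among the 6 were the co-repressors tle2a at 1.23 (1.14 to 1.33) and tle2c at 1.36 (1.11 to 1.67). None of these values passed 1.5-fold. For genes with 5000 to 20000 reads the range for their depth ran from -0.328 to 0.264 in log2 read ratio. Above it lay ctnnb2 at 0.341, and below it lay apc at -0.356 and apc2 at -0.385. For 2000 to 5000 reads the range ended at 0.247, and tle2a lay above it at 0.301. The other genes named in this paragraph lay inside the range for their depth.

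Of the 17 listed targets matched to a row, 11 had at least 50 reads. Of these, 0 were past 1.5-fold (against 2.86% of all genes upwards and 3.13% downwards), and 4 had an interval above 1 (36.4%, against 15.8%). These were myca and mycb, growth regulators of the Myc family, at 1.41 (1.27 to 1.57) and 1.289 (1.15 to 1.44), the AP-1 factor gene fosl1a at 1.42 (1.02 to 1.98) and the notochord gene tbxta at 1.22 (1.02 to 1.45). Of these 4, only myca and mycb lay above the range for their depth. The intervals of the other 7 on this list hold 1. Among them sp5a was at 1.0 (0.8045 to 1.245) and sp5l at 0.762 (0.536 to 1.08), and the cyclin gene ccnd1, with 3527 and 4031 reads, was at 0.993. The feedback inhibitor gene nkd1, listed with the intracellular genes, was at 1.13 (0.973 to 1.30). The 17 planar cell polarity genes were all within 1.5-fold, with the median log2 ratio at -0.041. The interval lay above 1 for 3 (17.6%, against 15.8% of all genes), among them vangl2 at 1.17 (1.10 to 1.24). It lay below 1 for 4 (23.5%, against 14.5%), among them prickle1b at 0.911 (0.841 to 0.9865).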

How the data were processed

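Poly-A RNA of 2 libraries of pooled whole embryos was sequenced, 1 per group, per the labels' protocols. Per the submitters' processing notes, the build was GRCz10, and Cufflinks 2.1.1, HTSeq 0.6.1, Picard 1.29, SAMtools and TopHat2 2.0.4 are listed with no role. The annotation, strand setting and treatment of shared reads were not given in the sources used here, which leaves values of close Wnt paralogs uncertain.

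The authors deposited FPKM for each library, per the file headers. They also deposited the mean over both libraries of counts divided by size factors, a signal per gene, and a log2 ratio, its error in log2 units, a score (the log2 ratio over its error) and an unadjusted p-value, per the file headers. These p-values compare single libraries and are not printed.

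Reads were recovered from the deposited means. These fall on a lattice (tolerance 0.01 step) in which a control read weighs 68 and a cyproconazole read 59, so each mean fits only some pairs of whole reads. Where a gene had several (40 of the 60 Wnt genes, up to 81 pairs), the kept pair was the one that, under a negative binomial fit with a normal prior centred on 0, gave the deposited error within 1e-05, with every other pair at least 10 times further off. Reads resulted for 23790 genes (99.9%), all 60 Wnt pathway genes among them. The recovery was tested on data simulated with this same fit and the same weights of 68 and 59. That test cannot show whether the deposited values follow the fit. Ratios were put on a common scale with the trimmed mean of M values (trimming 30% by log ratio and 5% by mean level) over all genes, a shift of -0.0041 on the log2 scale from total reads. Intervals are exact (Clopper-Pearson) at 95%, and reads are not independent molecules. Python 3.11.15, NumPy 2.4.6, pandas 2.3.3, SciPy 1.17.1 and matplotlib 3.10.9 were used.

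Genes needed 50 reads over both libraries. The genes given with full values are those whose interval leaves out 1, up to 15 in each direction, and a fixed list of core genes; wnt2, wnt2bb, dkk1a, dkk2, dkk3a, dkk3b, sfrp5, the cofactor, apc and gsk3 genes and others outside it were named with their values already seen. The members and lists were chosen with earlier results of these data known. Alternatives varied the scaling, read minimum, threshold and value added to FPKM. Of the listed pathway genes 88 were matched by symbol, 15 by another name in the reference tables, and 11 were not matched and not used here. Sequences were not used here.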

Additional observations from a re-analysis of the deposited data

How the results depend on the processing

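No paired analysis was possible because a single library stands for each group, and none could be omitted. By reads, 6 of the 55 genes with at least 50 reads lay past 1.5-fold upwards and 2 downwards. The other scalings gave the same counts, and a minimum of 20 reads or none, which takes in all 60 genes, gave 7 and 2 by adding wnt2ba at 1.56. With at least 200 reads they were 2 and 1, with a 2-fold threshold 0 and 0, and with an interval bound past 1.5-fold 1 and 0. Asking only that the interval leave out 1 gave 17 higher. Of the 6, wnt9a, wnt6b, wnt11 and dkk1a have under 100 reads over both libraries. By FPKM the counts were 2 higher and 1 lower. They were 4 and 2 with 0.1 added in place of 1, 1 and 0 with 5 added, and 0 and 0 at 2-fold. For the other pathway genes, against 1 higher and 1 lower by reads, the higher count was 0 with at least 200 reads, 0 at 2-fold, 0 with an interval bound past 1.5-fold, 2 with a minimum of 20 reads, 4 with no minimum and 21 with an interval that leaves out 1. The lower count was 3 with a minimum of 20 reads, 4 with no minimum and 15 with an interval that leaves out 1. The median log2 read ratio of 0.16 and the median log2(FPKM + 1) difference of 0.10 kept their sign, with ranges of 0.098 to 0.18 and 0.055 to 0.13 over the alternatives run.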
